A study of Mus musculus with 6 samples.

Results

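Goblet cells are the mucus-secreting cells of the intestinal epithelium. They assemble the gel-forming mucin Muc2 in the endoplasmic reticulum, coat it with O-linked sugars in the Golgi apparatus and release it from granules, together with proteins that bind, cross-link or cut the gel. Transmembrane mucins such as Muc13 and Muc1 stay on the cell surface and line the apical membrane of absorptive cells as well. The 9 genes described here were chosen by name from the 45777 genes of the deposited table, and all 9 were found in it. They are the mucins Muc2, Muc13 and Muc1, the secreted mucus proteins Tff3, Fcgbp, Clca1 and Zg16, the mucin-folding enzyme Agr2 and the transcription factor Spdef.

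The libraries are total RNA from 6 samples of mouse small intestine, 3 of a GFP control and 3 of PKCzeta overexpression. PKCzeta, an atypical protein kinase C, is the product of Prkcz. Every title also holds the letters DIO, whose meaning the labels do not state. Strain, age, diet, intestinal segment and the means of overexpression are not stated either. Each group is named by its title numbers, 1-1, 1-4 and 3-1 for GFP and 2-1, 4-1 and 4-2 for PKCzeta, and values are listed in that order throughout; "under GFP" and "under PKCzeta" mean in the libraries that carry that label. The labels do not tie libraries to animals, so p-values measure only the spread between these samples, which may be technical. In bulk tissue, fewer goblet cells and less RNA per goblet cell cannot be told apart.

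The total count ran from 77573133 to 93742978 per library, and the 9 genes together held between 1.66% and 2.15% of it. Prkcz itself was not higher under PKCzeta, at 70.5, 98.6 and 96.9 against 82.5, 100.07 and 57.0 CPM (counts scaled to a common library size), or -0.15 (SE 0.24) as a log2 fold change (edgeR adjusted p 0.950). Libraries are therefore named by label, and all directions compare labels rather than measured overexpression. The tissue carried epithelial genes in every library, with all 14 pan-epithelial markers tested and a summed level of 12120 to 15978 CPM. Of 12 stomach and pancreas markers, 10 were too low to test, among them Muc5ac, Gkn1 and Tff1 at 0 counts in all 6 libraries. The libraries also differed in ways that cross the labels. Ribosomal RNA took 4.40%, 1.35% and 4.66% of counts in the GFP-labelled libraries and 4.44%, 2.33% and 0.956% in the PKCzeta-labelled ones, and mitochondrial genes took 9.08%, 3.37% and 10.7% against 9.19%, 5.67% and 2.92%.

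The bases just before a start listed by RefSeq are shown for 4 of the genes, whose transcripts did not all vary alike. Spdef and Agr2 were low in the same libraries. By the likeness measure given below, Muc2 was far from every other tested member, and Fcgbp was near neither Muc2 nor Spdef. That measure also depends on how widely each gene varied. Whether the sequences have a part in these patterns was not tested. RefSeq's promoter table for GRCm38, the assembly that mm10 names, held 6 of the 9 genes, and each line gives the 250 bases that end 1 base before the listed start, 5′ to 3′ on the gene's own strand. The start listed for Spdef lies inside the span of that gene given here, and those of Muc2, Fcgbp and Agr2 are at the edge of theirs. The capitals mark matches to TATAA (the TATA box), CAGCTG (an E-box of the kind bound by ATOH1) and GGATG (the core bound by SPDEF), searched on both strands. A match on the opposite strand to GGATG reads CATCC.
Muc2, chr7:141690090-141690339, plus strand: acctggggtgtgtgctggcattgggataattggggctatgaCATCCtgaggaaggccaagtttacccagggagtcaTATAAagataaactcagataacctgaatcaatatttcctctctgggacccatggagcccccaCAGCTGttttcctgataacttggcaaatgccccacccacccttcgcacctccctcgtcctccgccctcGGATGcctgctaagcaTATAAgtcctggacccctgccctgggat
Fcgbp, chr7:28070986-28071235, plus strand: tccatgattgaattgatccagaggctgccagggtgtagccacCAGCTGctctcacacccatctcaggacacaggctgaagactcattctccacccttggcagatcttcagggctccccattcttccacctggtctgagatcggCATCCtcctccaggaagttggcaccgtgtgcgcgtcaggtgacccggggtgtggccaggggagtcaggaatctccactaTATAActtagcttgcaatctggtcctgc
Agr2, chr12:35992675-35992924, plus strand: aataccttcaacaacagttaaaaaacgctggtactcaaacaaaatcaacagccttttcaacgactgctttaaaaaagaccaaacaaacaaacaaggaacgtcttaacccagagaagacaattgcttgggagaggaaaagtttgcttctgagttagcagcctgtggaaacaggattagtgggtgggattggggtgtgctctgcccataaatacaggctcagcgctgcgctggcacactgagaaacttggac
Spdef, chr17:27728952-27729201, minus strand: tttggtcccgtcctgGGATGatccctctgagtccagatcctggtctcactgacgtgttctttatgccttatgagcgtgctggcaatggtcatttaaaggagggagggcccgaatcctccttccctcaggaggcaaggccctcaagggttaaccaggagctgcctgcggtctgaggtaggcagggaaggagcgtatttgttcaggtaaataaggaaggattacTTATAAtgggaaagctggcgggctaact

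The Muc2 window held TATAA at 28 and 174 bases before the start, CAGCTG at 112 bases and GGATG at 44 bases and, on the opposite strand, at 209 bases. Fcgbp had the same 3 kinds of match, with TATAA at 28 bases, CAGCTG at 208 bases and GGATG on the opposite strand at 107 bases. In Spdef, counted from that internal start, TATAA matched on both strands over 1 shared stretch, at 27 and 28 bases, and GGATG matched once, at 235 bases. The Agr2 window held none of these letters. Among 32851 promoter windows of the same length, 22.8% held TATAA, 13.0% held CAGCTG and 37.3% held GGATG. A forkhead motif, TGTTTAC (3.17% of windows), and a CDX2 motif, CAATAAA (4.20%), were found in none of the windows of the 6 matched genes. A match describes letters and not binding, and no match says only that these letters are not in this window.

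Level was compared between genes on the deposited TPM values, which are scaled to transcript length. The order ran from Zg16, a lectin that binds Gram-positive bacteria, down to Muc1. Zg16 stood at a mean of 7664 TPM over the 6 libraries (range 6640 to 8966), and Tff3, the trefoil peptide of goblet cells, at 3582 TPM (3163 to 3992). These 2 ranges did not overlap each other or any lower gene. Clca1, a mucus metalloprotease (1394 TPM, 1060 to 1907), Muc13 (1335 TPM, 1026 to 1736) and Fcgbp, a large mucus protein that is bound to Muc2 in the gel (969.99 TPM, 723 to 1121), could not be ordered among themselves beyond their spread. The Agr2 range (532 TPM, 353 to 810) overlapped that of Fcgbp. Muc2 lay below all of them at 221 TPM (76.9 to 313), followed by Spdef at 10.2 TPM (4.44 to 19.7). No transcript length was matched for Muc2, so the length scaling behind its place in this order could not be checked. Muc1 had a mean of 0.0325 TPM and was listed at 0 in 4 of 6 libraries.

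**Figure D1:**
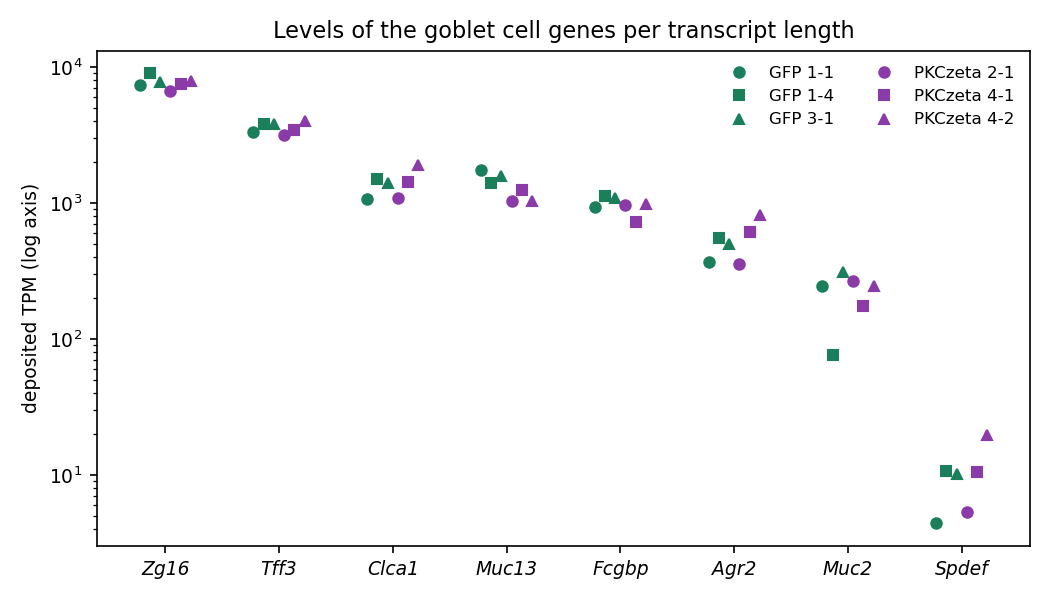
Deposited TPM of 8 of the genes in each library, on a log axis, with 1 point per library and genes ordered by their mean. Zg16 and Tff3 lie above all other genes in every library, and Muc2 has 1 low point, GFP-labelled 1-4 at 76.9 TPM. Muc1, at 0 in 4 libraries, is not drawn.

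The comparison of the labels asks which genes differ with PKCzeta overexpression, the stated aim of the study. Of the 9 goblet cell genes, 8 had enough counts to be tested, and edgeR's quasi-likelihood test called 0 of the 8 at an adjusted p under 0.05 (background: 0% of 18456 tested genes called). DESeq2 and limma voom also called 0 of them. The log2 fold change, PKCzeta-labelled minus GFP-labelled, was below 0 for 6 of the 8 (background: 45.7%), with a median of -0.20 beside 0.035 over all tested genes. At an unadjusted p under 0.05 in edgeR there was 1 lower gene, Muc13 (background: 3.07% of genes lower), and no higher one (background: 2.41%). The group ranges did not overlap for 3 genes, Muc13, Tff3 and Zg16, all lower under PKCzeta (background: 5.66% lower). No higher gene was of that kind (background: 4.72%). Lower values were not particular to the goblet cell genes. Of the 14 pan-epithelial markers, 10 were below 0 (background: 45.7%), with a median of -0.13. Among them 3 had separate lower ranges (background: 5.66%), and 2 were lower at an unadjusted p under 0.05 in edgeR (background: 3.07%). Of 14 absorptive enterocyte markers, 6 had separate lower ranges. Over all tested genes edgeR gave 1012 at an unadjusted p under 0.05, while DESeq2 called 87 and limma voom 0.

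**Figure D2:**
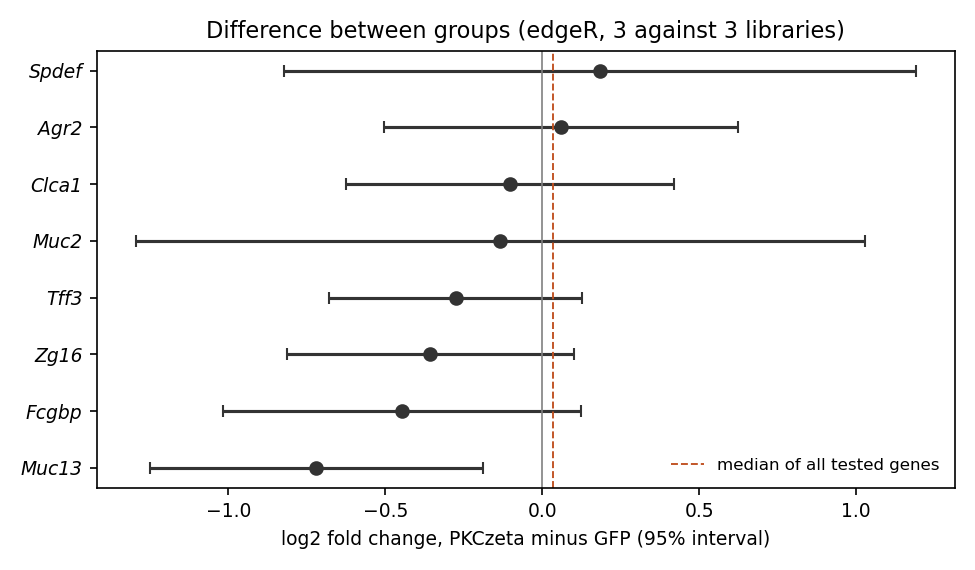
Log2 fold change of the 8 tested genes, PKCzeta-labelled minus GFP-labelled, from edgeR with 3 against 3 libraries; bars are 95% intervals, and the dashed line is the median of all tested genes (0.035). The interval leaves out 0 for Muc13 alone, at -1.25 to -0.19, and is widest for Muc2.

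Muc2 (Entrez 17831, chromosome 7 from 141690340 to 141754691 in mm10), the main structural mucin of intestinal mucus, stood at 1437, 419.9 and 1983 CPM under GFP against 1551, 886 and 1063 CPM under PKCzeta. Both the lowest and the highest library carried the GFP label, so the GFP-labelled range enclosed the other. Mean CPM was 1279.8 ± 793 under GFP and 1167 ± 345 under PKCzeta (SD, n = 3 each). As a log2 fold change the difference was -0.13 (SE 0.50, 95% limits -1.29 and 1.03; edgeR adjusted p 0.979, exact two-sided permutation p 0.9). The smallest permutation p that 3 against 3 can give is 0.1. The limits span a ratio of 0.408 to 2.04. The sign rested on single libraries, at -0.55 without GFP-labelled 1-4 and 0.33 without GFP-labelled 3-1.

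Muc13 (Entrez 17063, chromosome 16 from 33794037 to 33819929) encodes a transmembrane mucin of the apical surface, found on goblet and absorptive cells. Its level was 4021, 3037 and 3932 CPM under GFP against 2397, 2506 and 1768 CPM under PKCzeta. Every PKCzeta-labelled library lay below every GFP-labelled one. Mean CPM was 3663 ± 544 under GFP and 2223 ± 398 under PKCzeta (SD, n = 3 each), 39.3% lower, or -0.72 on the log2 scale (SE 0.23, 95% limits -1.25 and -0.19). The unadjusted p was 0.0140 and the adjusted p 0.858 in edgeR, and the exact two-sided permutation p was 0.1, the smallest possible. DESeq2 gave the same gene an adjusted p of 0.240, the lowest of its alternatives. A lncRNA, Gm15658, overlaps the 5′ part of Muc13 and had 76 to 132 counts per library, far fewer than Muc13.

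Absorptive cell markers had lower values under PKCzeta too. All 14 absorptive enterocyte markers had a log2 fold change below 0 (background: 45.7%), with a median of -0.88. In edgeR 8 had an unadjusted p under 0.05 (background: 3.07% lower) and 0 passed the adjusted threshold. DESeq2 called 3 of the 14 (background: 87 of 18169 tested genes). The summed level of the 14 was 39789 to 50295 CPM under GFP against 18160 to 37128 CPM under PKCzeta, and none was at 0. The examples include Fabp2, the intestinal fatty acid-binding protein (-1.04, SE 0.39), and Alpi, intestinal alkaline phosphatase (-0.96, SE 0.21). When the enterocyte score entered the edgeR fit as a covariate, Muc13 had a log2 fold change of -0.53 (SE 0.36, unadjusted p 0.183). That score mostly followed the labels, at 0.58, 0.76 and 0.14 under GFP against -0.57, 0.18 and -1.10 under PKCzeta. The fit therefore cannot tell label from score, and the part of absorptive cells in the Muc13 level was not tested. When libraries were scaled to pan-epithelial reads, the Muc13 ranges overlapped, at 332, 190.1 and 254 reads per 1000 pan-epithelial reads against 187, 192 and 128.

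Muc1 (Entrez 17829, chromosome 3 from 89229056 to 89233381) encodes another transmembrane mucin. It had 0 counts in all 3 GFP-labelled libraries and in PKCzeta-labelled 2-1, and 13 and 15 counts in PKCzeta-labelled 4-1 and 4-2. These 2 counts have exact Poisson 95% intervals of 6.92 to 22.2 and 8.40 to 24.7, which cover counting error only. They correspond to 0.160 and 0.144 CPM. As a one-sided limit, a count of 0 allows up to 3 counts, or 0.0343 to 0.0378 CPM in the 4 libraries without one, provided that the 0 is a count of reads. The counting program is not stated, so whether a listed 0 is such a count is not known. The gene was too low to test, and the groups shared the value of 0.

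Tff3 (Entrez 21786, chromosome 17 from 31125306 to 31129611), which aids repair of the epithelium, was the steadiest of the 8 genes, with a highest level 1.39 times its lowest. It stood at 1285, 1382 and 1588 CPM under GFP against 1218, 1151 and 1143 CPM under PKCzeta. The ranges did not overlap, though the gap between 1218 and 1285 CPM was small. Mean CPM was 1418 ± 155 under GFP and 1171 ± 41.1 under PKCzeta (SD, n = 3 each), which as a log2 fold change is -0.28 (SE 0.17, 95% limits -0.68 and 0.13; edgeR adjusted p 0.917, exact permutation p 0.1).

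Zg16 (Entrez 69036, chromosome 7 from 127050156 to 127052675) was at 4224, 4844 and 4857 CPM under GFP against 3807, 3724 and 3340 CPM under PKCzeta. All 3 PKCzeta-labelled values lay below the lowest GFP-labelled value. The means of 4642 ± 362 and 3624 ± 249 CPM (SD, n = 3 each) correspond to -0.36 on the log2 scale (SE 0.20, 95% limits -0.81 and 0.10; edgeR adjusted p 0.917, exact permutation p 0.1). Per 1000 pan-epithelial reads Zg16 was at 349, 303 and 314 against 298, 286 and 241, and it was then the 1 gene whose ranges stayed apart. On TPM the Zg16 and Tff3 ranges overlapped, and Muc13 was the 1 gene whose ranges did not. No single gene therefore kept separate ranges on all 3 scales.

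Fcgbp (Entrez 215384, chromosome 7 from 28071236 to 28120864) was at 6232, 7040 and 7930 CPM under GFP against 6452, 4201 and 4900 CPM under PKCzeta. PKCzeta-labelled 2-1 lay among the GFP-labelled libraries, and the other two lay below them. Mean CPM was 7067 ± 849 under GFP and 5184 ± 1152 under PKCzeta (SD, n = 3 each), a log2 difference of -0.45 (SE 0.25, 95% limits -1.02 and 0.12; edgeR adjusted p 0.917, exact permutation p 0.2). Without PKCzeta-labelled 2-1 it was -0.68. A pseudogene, Gm21925, overlaps Fcgbp in the annotation and has no count of its own in the table.

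Clca1 (Entrez 23844, chromosome 3 from 145004537 to 145032776) was at 2624, 3491 and 3778 CPM under GFP against 2672, 3043 and 3498 CPM under PKCzeta. The 2 lowest values came from 1 library of each label, GFP-labelled 1-1 and PKCzeta-labelled 2-1. Means of 3297 ± 601 and 3071 ± 414 CPM (SD, n = 3 each) correspond to a log2 difference of -0.10 (SE 0.23, 95% limits -0.63 and 0.42; edgeR adjusted p 0.964, exact permutation p 0.8).

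Agr2 (Entrez 23795, chromosome 12 from 35992925 to 36004081) encodes a disulfide isomerase of the endoplasmic reticulum that is needed to make Muc2. Its level was 234, 331 and 349 CPM under GFP against 226, 342 and 385 CPM under PKCzeta. Again GFP-labelled 1-1 and PKCzeta-labelled 2-1 were the lowest. With means of 305 ± 61.8 and 318 ± 82.3 CPM (SD, n = 3 each), the log2 difference was 0.060 (SE 0.24, 95% limits -0.50 and 0.62; edgeR adjusted p 0.981, exact permutation p 0.9).

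Spdef (Entrez 30051, chromosome 17 from 27714446 to 27731003), an ETS-family factor that drives maturation of goblet and Paneth cells, showed the same split more widely. It stood at 6.83, 15.5 and 16.7 CPM under GFP against 8.14, 14.0 and 22.2 CPM under PKCzeta. The low pair was once more GFP-labelled 1-1 and PKCzeta-labelled 2-1, and the highest library was PKCzeta-labelled 4-2. Mean CPM was 13.0 ± 5.38 under GFP and 14.8 ± 7.06 under PKCzeta (SD, n = 3 each), a log2 difference of 0.18 (SE 0.44, 95% limits -0.82 and 1.19; edgeR adjusted p 0.965, exact permutation p 0.8). Without PKCzeta-labelled 4-2 it was -0.23, and without GFP-labelled 1-1 it was -0.15.

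**Figure D3:**
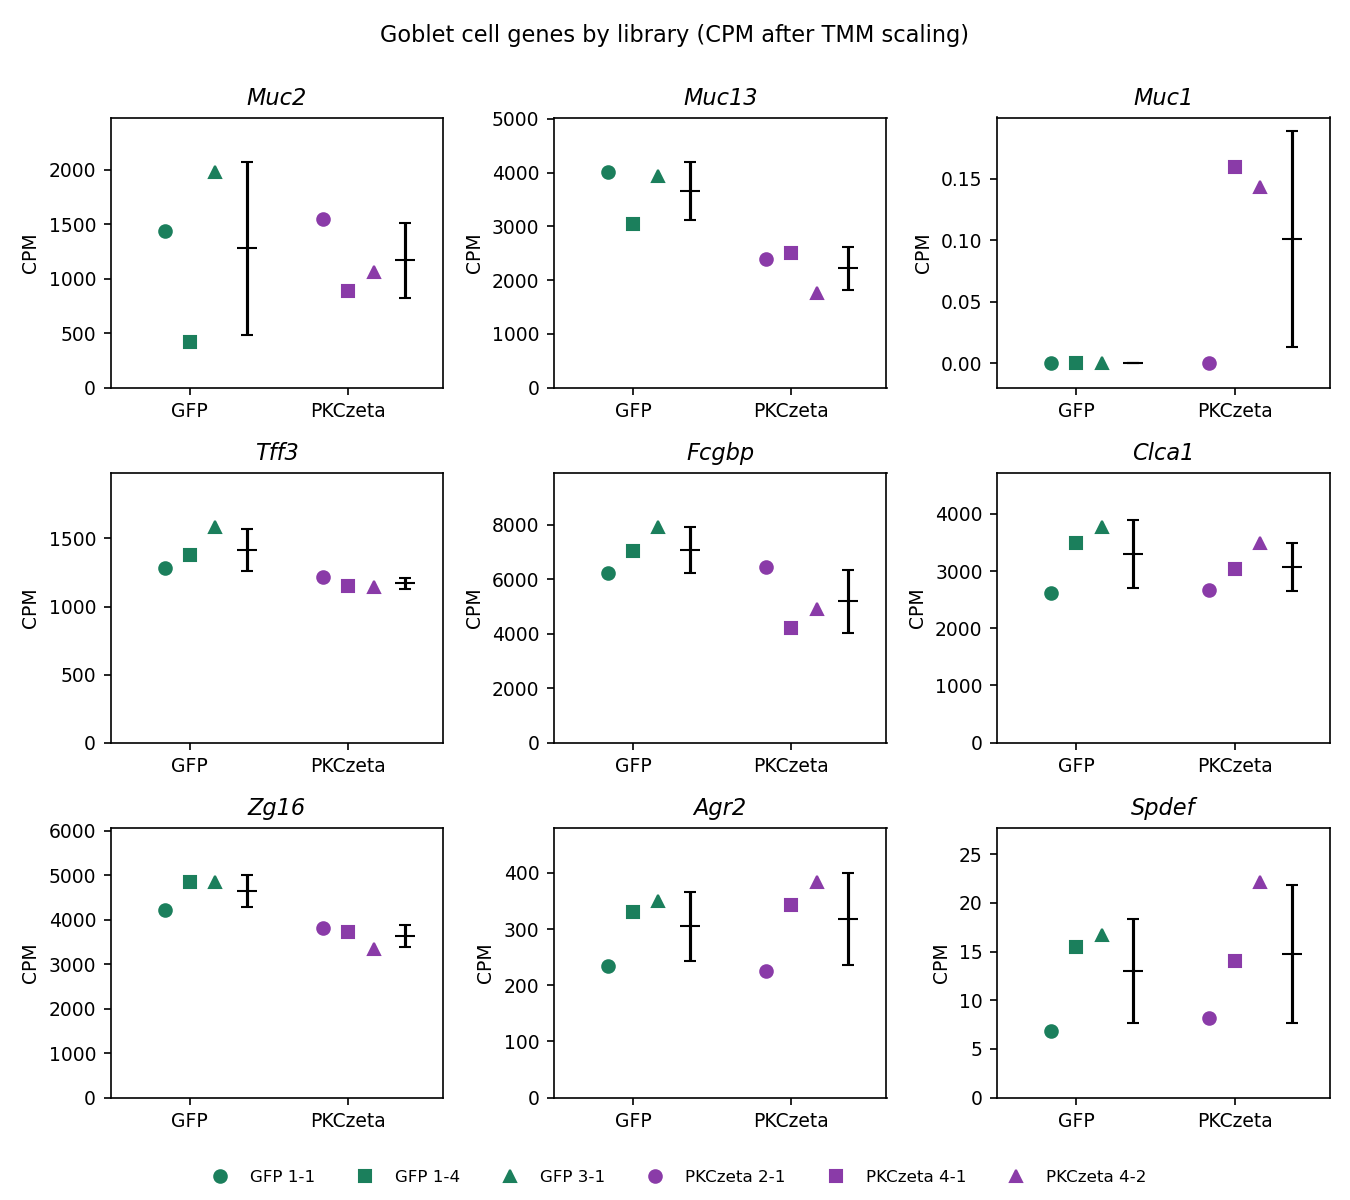
CPM after TMM scaling for each of the 9 genes, with 1 point per library, and the mean with its SD beside each group; axes are linear and differ between panels. The groups lie apart for Muc13, Tff3 and Zg16, while Muc2 has its lowest and its highest value in the GFP-labelled group.

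Summed over the 9 genes, the level was 20064, 20558 and 24433 CPM under GFP against 18330, 15867 and 16119 CPM under PKCzeta. These ranges did not overlap, but the sums are weighted by Fcgbp, Zg16, Clca1 and Muc13, and no test was made of them. As a share of all counts, without TMM scaling, the same genes held 1.86%, 2.00% and 2.15% against 1.84%, 1.66% and 1.92%, and these ranges did overlap. The TMM factor was 0.881 to 0.974 in the GFP-labelled libraries and 1.002 to 1.19 in the PKCzeta-labelled ones.

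The 9 genes did not vary as 1 block. Likeness was measured as the root mean square (RMS) difference of 2 genes' centred log2 CPM over the 6 libraries, as a description with no test, and all values share the same libraries and depths. Over the 28 pairs of the 8 tested genes, Tff3 and Zg16 were most alike (RMS 0.083), followed by Clca1 and Agr2 (0.15) and Tff3 and Fcgbp (0.18). Least alike were Muc2 and Spdef (1.07). Each of the 7 pairs with Muc2 had an RMS of 0.71 or more. The RMS depends on how widely each gene varies as well as on its pattern. The SD over libraries was 0.79 log2 units for Muc2 and 0.65 for Spdef, against 0.18 for Tff3 and 0.22 for Zg16. A steady gene is therefore far from Muc2 and near another steady gene whatever its pattern. The Muc2 spread came largely from GFP-labelled 1-4, at -1.39.

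Spdef, Agr2 and Clca1 shared their low libraries. Among 8024 genes with a mean of at least 10 CPM, those nearest to Spdef were Cldn2, a claudin of crypt tight junctions (RMS 0.19), the forkhead factor Foxa3 (0.22), the Notch target Hes1 (0.23), the tissue factor gene F3 (0.24) and Creb3l4, a factor of the secretory pathway (0.25). Agr2 ranked 39th in that list and Clca1 427th. Foxa3 stood at 8.35, 14.5 and 13.4 CPM under GFP against 7.86, 13.9 and 17.0 CPM under PKCzeta, and so was lowest in the same 2 libraries. Reg4, a lectin of secretory cells named here after its values were seen, ran at 18.2, 66.4 and 56.9 against 31.4, 66.0 and 115 CPM.

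Markers of Paneth cells, which are crypt secretory cells, were lowest in the same 2 libraries. The Paneth score, which is the mean centred log2 CPM of 10 markers, was -0.90, 0.98 and -0.35 under GFP against -0.92, 0.34 and 0.85 under PKCzeta. In GFP-labelled 3-1 the score was below 0, whereas Spdef was above its mean there by 0.38 log2 units. All 10 markers were tested, none was at 0, and their summed level was 8003 to 31124 CPM under GFP against 8201 to 26322 CPM under PKCzeta. Lyz1, the Paneth lysozyme, was at 2975, 10755 and 4365 against 3013, 5606 and 9409 CPM. Its part in the levels of Spdef, Agr2 and Clca1 was not tested. The 2 libraries that were low for Spdef also had high ribosomal and mitochondrial shares, although GFP-labelled 3-1, with shares as high, was not low for it.

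Muc2 was most like another set of genes. The 5 nearest to it were Cbl, a ubiquitin ligase (RMS 0.26), the nucleotide receptor P2ry4 (0.27), the histone methyltransferase Kmt2d (0.29), Hdgfl3 (0.30) and Synpo2, an actin-binding protein of muscle (0.32). Of the 7 other tested genes among the 9, the nearest was Tff3, which ranked 2565th of 8024, with an RMS of 0.71. All 5, like Muc2, were lowest in GFP-labelled 1-4. Kmt2d, for example, was at 43.4, 18.7 and 50.2 CPM under GFP against 39.4, 27.7 and 27.1 CPM under PKCzeta.

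Smooth muscle markers were low in that library too. Their score was 0.42, -0.79 and 0.50 under GFP against -0.09, 0.075 and -0.12 under PKCzeta. All 10 were tested and none was at 0, and they summed to 937 to 2071 CPM against 1364 to 1653 CPM. Long transcripts also stood low there. Among 875 tested genes whose longest annotated transcript has 8 kb or more, the median deviation from each gene's mean was 0.22, -0.33 and 0.030 log2 units under GFP against 0.058, 0.018 and -0.014 under PKCzeta. Fcgbp, with a longest transcript of 7928 nt, lies just outside that group. It was above its own mean in GFP-labelled 1-4, by 0.23 log2 units, where Muc2 was at -1.39. The 4738 genes from 4 to under 8 kb, Fcgbp among them, had a median of -0.10 in that library. No transcript length was matched for Muc2 itself, and the part of muscle content or transcript length in its level was not tested.

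**Figure D4:**
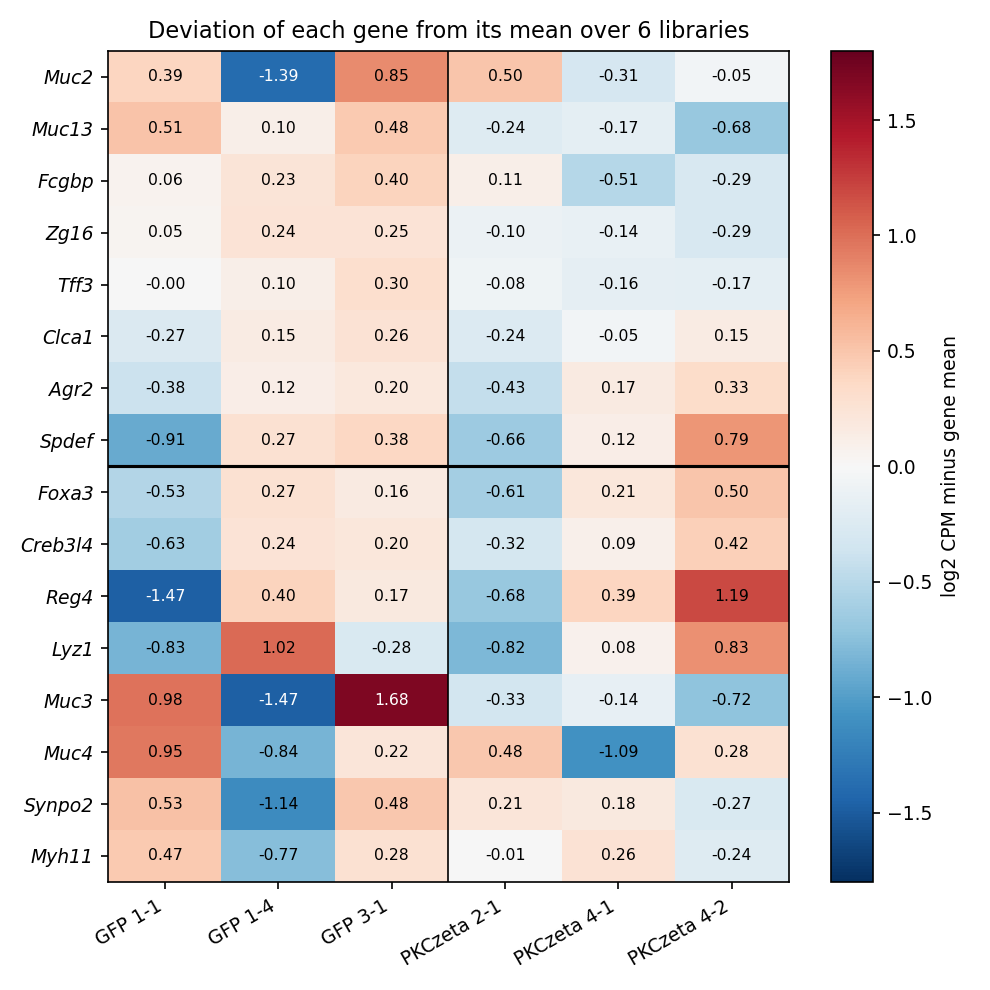
Deviation of log2 CPM from each gene's mean over the 6 libraries (colour and printed number), for the 8 tested goblet cell genes above the line and 8 other genes below it. The 8 other genes were picked by hand. Spdef, Agr2 and Clca1 are low in GFP-labelled 1-1 and PKCzeta-labelled 2-1, as are Foxa3, Creb3l4, Reg4 and Lyz1. Muc2 is lowest in GFP-labelled 1-4, as are Muc3, Synpo2 and Myh11, whereas Muc4 is lowest in PKCzeta-labelled 4-1.

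The other mucin genes were few in this tissue. Of 12 listed, 10 were in the table, 4 were tested, and Muc5ac, Muc5b, Muc6, Muc15 and Muc20 had 0 counts in all 6 libraries. All 4 tested genes had a log2 fold change below 0 (background: 45.7%), with a median of -0.76. In edgeR 1 had an unadjusted p under 0.05 (background: 3.07% lower), and 0 passed the adjusted threshold. Muc3, a transmembrane mucin of the brush border, was at 1938, 355 and 3149 CPM under GFP against 778, 888 and 595 CPM under PKCzeta, or -1.27 on the log2 scale (SE 0.66, edgeR adjusted p 0.917). It was lowest in GFP-labelled 1-4, as Muc2 was, and reads may be split between it and Muc3a. Muc16, a very long transmembrane mucin, was at 5.84, 0.903 and 4.999 against 0.851, 0.578 and 0.249 CPM, so GFP-labelled 1-4 lay close to the PKCzeta-labelled libraries. Its log2 fold change was -2.81 (SE 0.73, unadjusted p 0.00508, adjusted p 0.858 in edgeR), and DESeq2 gave an adjusted p of 0.00450, its 1 call in the list.

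Of 28 other goblet cell and chloride channel accessory (CLCA) genes, 25 were tested, 17 below 0 and 8 above, with a median log2 fold change of -0.053. None passed the adjusted threshold in edgeR, DESeq2 or limma voom. At an unadjusted p under 0.05 edgeR had 2 lower (background: 3.07%) and 2 higher (background: 2.41%). The 2 lower were Clca4a (-0.59, SE 0.20) and Clca4b (-0.66, SE 0.26), relatives of Clca1 that absorptive cells express. Clca4b stood at 6283, 4447 and 5218 CPM under GFP against 3528, 4106 and 2478 CPM under PKCzeta, with no overlap (background: 5.66% lower). Among the higher, the chemokine gene Ccl9 was at 26.3, 22.6 and 21.1 against 32.5, 40.5 and 29.8 CPM (0.55, SE 0.18, edgeR adjusted p 0.866). The fourth, Retnlb, an antibacterial goblet cell protein named after its values were seen, did not exceed 1.33 CPM in any library. It had 9, 27 and 4 counts under GFP against 26, 32 and 139 under PKCzeta. It passed the count filter through the group where it was high, so its p-value and its place among the higher genes lend no support.

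The sugar-adding enzymes of mucins showed no call. Of 28 genes of mucin-type O-glycan synthesis, 26 were tested, 17 below 0 and 9 above (median -0.065), with 0 past the adjusted threshold in edgeR, DESeq2 or limma voom. The 1 gene at an unadjusted p under 0.05 in edgeR (background: 3.07% lower) was B3gnt3, which extends core O-glycans. It was at 119, 132.5 and 148 CPM under GFP against 97.96, 113 and 97.4 CPM under PKCzeta (-0.37, SE 0.15, edgeR adjusted p 0.877). St3gal4, a sialyltransferase, had -0.44 (SE 0.27), and Galnt1, which starts O-glycan chains, had -0.17 (SE 0.17).

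Regulators and folding enzymes were also without a call. Of 18 secretory lineage factors and Notch genes, 7 had values below 0 and 11 above (median 0.060), with 0 at an unadjusted p under 0.05 in edgeR and 0 called in any of the 3 tools. Klf4, a factor of goblet cell maturation, had -0.66 (SE 0.31, edgeR adjusted p 0.917) and was at 213, 119 and 191 CPM against 157, 98.7 and 75.5 CPM. Of 25 genes of endoplasmic reticulum folding and secretion, 15 were below 0 and 10 above (median -0.020). In edgeR 1 had an unadjusted p under 0.05 (background: 3.07% lower). That gene was P4hb, a protein disulfide isomerase, at 1673, 2052 and 1765 CPM under GFP against 1136, 1508 and 1325 CPM under PKCzeta (-0.47, SE 0.20, edgeR adjusted p 0.901). Hspa5, the chaperone BiP, had 0.046 (SE 0.37).

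Genes that act on mucus from outside the goblet cell were mixed. Of 11 genes of mucus cleavage and ion transport, 10 were tested, 7 below 0 and 3 above (median -0.22). The anion exchanger gene Slc26a6 had the 1 unadjusted p under 0.05 in edgeR (-0.53, SE 0.22, adjusted p 0.889; background: 3.07% lower). Mep1b encodes a subunit of meprin, the protease that releases Muc2 from the epithelium. It was at 2496, 2605 and 3189 CPM under GFP against 2213, 2166 and 1328 CPM under PKCzeta, with no overlap (background: 5.66% lower). Its log2 fold change was -0.54 (SE 0.25, edgeR adjusted p 0.917). Both Slc26a6 and Mep1b are expressed by absorptive cells.

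Of 13 cytokines and receptors that act on goblet cells, 10 were tested, 5 below 0 and 5 above (median 0.057). Il13 had 0 counts in all 6 libraries. Il22, a cytokine that induces antimicrobial and mucus genes, was at 0.0756, 0.0571 and 0 CPM under GFP against 0.701, 0.123 and 1.39 CPM under PKCzeta, and Tslp, an epithelial cytokine, was at 0.265, 0.206 and 0.206 against 0.483, 0.357 and 0.746 CPM. Neither range overlapped (background: 4.72% higher). Il22 had only 6, 5 and 0 counts under GFP against 61, 10 and 145 under PKCzeta. It passed the count filter through the group where it was high, so its separate ranges and p-values lend no support. Whether its listed 0 is a count of reads is not known. In edgeR both genes lay under an unadjusted p of 0.05 (background: 2.41% higher). The edgeR adjusted p was 0.858 for Il22 and 0.871 for Tslp. DESeq2 gave Il22 an adjusted p of 0.0254. The Il22 receptor gene Il22ra1 was at 151, 137 and 250.4 CPM against 160, 139 and 102 CPM, with overlap.

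**Figure D5:**
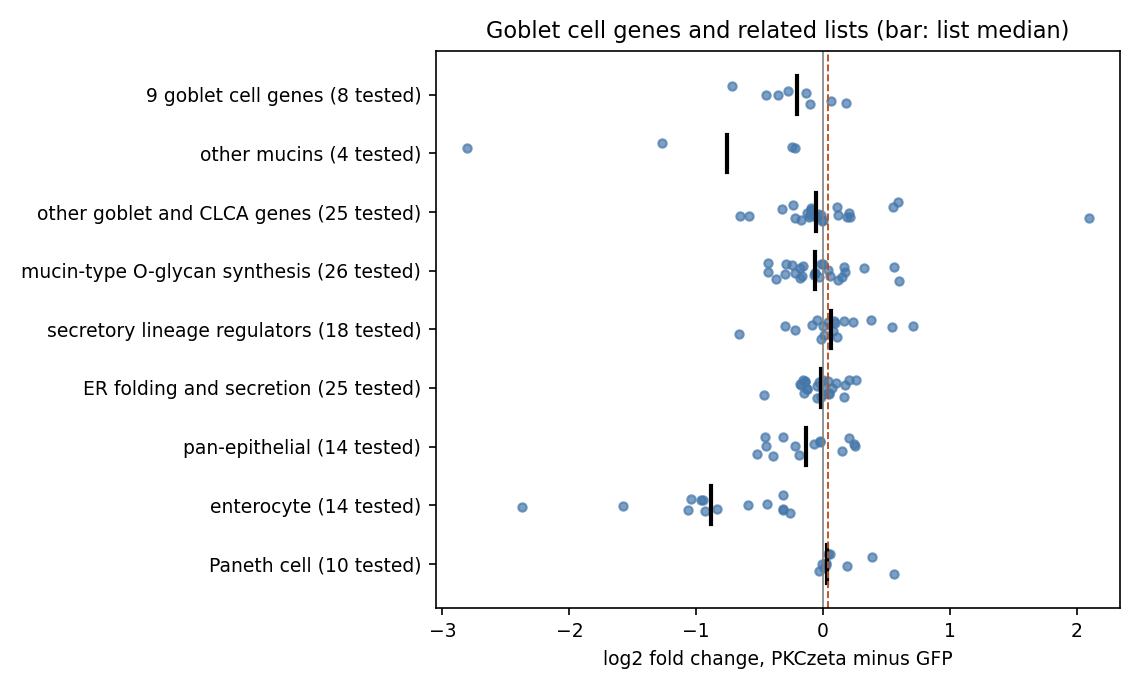
Log2 fold change, PKCzeta-labelled minus GFP-labelled, of each tested gene (points) in the goblet cell genes and 8 other lists; black bars are list medians and the dashed line is the median of all tested genes (0.035). The enterocyte points all lie below 0 with a median of -0.88, while the goblet cell genes have a median of -0.20 and the Paneth genes one of 0.031.

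Goblet cell density is known to rise along the small intestine, and genes of both its ends had mostly lower values under PKCzeta. Of 13 proximal genes, 12 were tested and all 12 were below 0 (background: 45.7%), with a median of -0.90. In edgeR 7 had an unadjusted p under 0.05 (background: 3.07% lower) and 0 were called. DESeq2 called 3 (background: 87 of 18169 tested genes). Lct, Rbp2, Fabp1 and Apoa4 are also in the enterocyte list, and Apoa4 is a DESeq2 call in both, so the lists are not separate evidence. Gata4, a transcription factor of the proximal small intestine, was at 7.22, 9.70 and 1.79 CPM under GFP against 1.12, 0.738 and 1.08 CPM under PKCzeta, so GFP-labelled 3-1 was nearer to the PKCzeta-labelled libraries than to its own group. Of 10 distal genes, 9 were below 0 (background: 45.7%), with a median of -0.62, and the 1 above 0 was Slc10a2 (0.28, SE 0.29). In edgeR 4 had an unadjusted p under 0.05 (background: 3.07% lower), and 0 were called in edgeR, DESeq2 or limma voom. Plb1 (-3.75, SE 1.28) and Slc51a (-0.64, SE 0.25) had the smallest p-values in edgeR. The distal score was 0.34, 0.33 and 0.66 under GFP against -0.47, -0.14 and -0.72 under PKCzeta. These ranges did not overlap, and no test was made of the score. Fabp6, an ileal bile acid-binding protein, was high in all 6 libraries at 2544 to 4215 CPM. Whether the segment sampled has a part in the goblet cell gene levels was not tested.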

How the data were processed

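Total RNA libraries were depleted of ribosomal RNA and made with a strand-preserving kit, per the labels' protocols. FastQC, Trimmomatic, HISAT2, StringTie and the build mm10 are named, without versions, per the submitters' processing notes. For the counting program and its strand setting, the sources used here give no name. Per the file headers, the authors deposited, for each gene and library, read counts, FPKM and TPM; the deposited FPKM values were not used. Counts were filtered by filterByExpr and scaled by TMM, and the groups were compared by a two-sided quasi-likelihood F test in edgeR 4.0.16 (R 4.3.3), with Benjamini-Hochberg adjustment over 18456 genes and a threshold of 0.05. CPM is after TMM scaling. Permutation tests were exact, on log2 CPM with a prior count of 2. Alternatives used DESeq2 1.42.0, limma 3.58.1, other scalings, filters, TPM, a covariate, and each library left out. The test was also run on counts simulated from its own fitted means and dispersions, which cannot check that model. The outcome is not given here, so the power to call changes as small as those of the goblet cell genes is left unstated. The biological coefficient of variation was 0.354, so spread between libraries, and not counting error, sets the precision of all genes but the rarest.

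The genes and lists were chosen with earlier results of these data known. Named are the 9 goblet cell genes, of each list up to 3 tested genes with the highest mean CPM and up to 2 with the smallest p, and the 5 genes nearest to Muc2 and to Spdef; others are said to be chosen after their values were seen. Positions are from RefSeq, matched by gene ID for 45679 of 45777 genes. Transcript lengths are from GENCODE M21, with a length for 81.3% of tested genes.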

Additional observations from a re-analysis of the deposited data

How the results depend on the processing

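The count of goblet cell genes past the threshold was 0 under every setting for which calls were counted, and the count over all genes was 0 under each of these except DESeq2, where it was 87, 48 higher and 39 lower. Calls were not counted in the fit with the enterocyte covariate. Leaving out each library gave 0 for both counts each time. The 3 genes with separate ranges became 1 when scaled to pan-epithelial reads and 1 on deposited TPM, both chosen after seeing the data; under the 3 other scalings tried the number was 3. Of 136 log2 fold changes under 17 settings, 122 had the direction first given and 14 did not; the cause was not tested. Muc13, Tff3, Fcgbp and Zg16 were below 0 under all 17, but on log2(TPM + 1) Tff3 shrank to -0.047, Zg16 to -0.13, Fcgbp to -0.24 and Muc13 to -0.51. Clca1 turned to 0.033 when scaled to pan-epithelial reads and to 0.13 on log2(TPM + 1) and on log2(TPM + 0.1), and Muc2 to 0.32 on both TPM scales. The median of all genes was itself 0.15, 0.14 and 0.23 on these 3 scales, so Clca1 was at or below it on each. With the enterocyte score, which mostly followed the labels, as a covariate Agr2 turned to -0.066 and Spdef to -0.30. Leaving out 1 library at a time, the range was -0.55 to 0.33 for Muc2, -0.84 to -0.57 for Muc13, -0.36 to -0.18 for Tff3, -0.68 to -0.32 for Fcgbp, -0.26 to 0.0074 for Clca1, -0.43 to -0.30 for Zg16, -0.12 to 0.21 for Agr2 and -0.23 to 0.42 for Spdef. No paired analysis was possible because the title numbers share no value between the labels.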

Other observations

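Tuft, enteroendocrine, stem, smooth muscle and leukocyte cells of the same tissue were described by their marker lists. None of these lists held a gene past the adjusted threshold in edgeR, DESeq2 or limma voom, unlike the enterocyte list, with 3 in DESeq2. Of 9 tested tuft cell genes, 7 had a log2 fold change above 0 (median 0.23), with 0 at an unadjusted p under 0.05 in edgeR. Dclk1, a marker of tuft cells, was at 14.6, 12.4 and 14.8 CPM under GFP against 17.5, 15.8 and 16.5 CPM under PKCzeta. Of 10 enteroendocrine genes, 6 were below 0 (median -0.18), and 2 had an unadjusted p under 0.05 in edgeR (background: 3.07% lower). These were Chga, which encodes the granule protein chromogranin A (-0.53, SE 0.19, edgeR adjusted p 0.870), and Gip, which encodes an incretin hormone (-0.996, SE 0.39, edgeR adjusted p 0.877).

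Of 8 stem cell genes, 5 were above 0 (median 0.15), and Olfm4, a marker of crypt base cells, had -0.14 (SE 0.23). All 10 smooth muscle genes were below 0 (median -0.20), with 0 at an unadjusted p under 0.05 in edgeR. Of 10 leukocyte genes, 9 were above 0 (median 0.34), also with 0 at that p. Ptprc, the pan-leukocyte gene that encodes CD45, was at 89.3, 59.3 and 42.0 CPM under GFP against 190.1, 53.5 and 114 CPM under PKCzeta.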
